A study of Danio rerio with 36 samples.

Results

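Exposure to tetrabromobisphenol A (TBBPA) at its EC20 went with higher transcript levels of 16 genes whose mean level at the EC20 of bisphenol A (BPA) stayed within 1.5-fold of the control. The genes were chosen on the deposited values themselves. Each had to be at least 1.5-fold higher at the EC20 of TBBPA than in the carrier control (CC) in each of the 3 same-numbered pairs of libraries, with a mean control value of at least 30, and its mean change in the BPA series had to be under 1.5-fold in either direction. Changes were taken on log2(normalized count + 1), where a normalized count is a gene's read count divided by the size factor of its library. Of the 26639 genes in the TBBPA table, 14906 had a control mean of at least 30, and 39 of these (0.262%) rose in each pair. In the BPA series, 22 of the 39 were at least 1.5-fold higher on average, 1 was at least 1.5-fold lower, and 16 were in between. The 10 gene identifiers that the rule leaves out did not meet its other conditions. Since these contrasts chose the genes, the EC20 values of both series are described here and carry no test.

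RNA came from pools of 20 whole AB/Tub larvae, hybrids of a pair of laboratory strains, that looked normal after exposure from 72 to 120 hpf. Each series held a CC and 5 concentrations in 10-fold steps. TBBPA was given at 0.000292, 0.00292, 0.0292, 0.292 and 2.92 µM and BPA at 0.00483, 0.0483, 0.483, 4.83 and 48.3 µM, with the EC20 as the highest, and every group had 3 replicates from different clutches. The carrier, DMSO at 0.5%, was shared by all groups. The labels of the controls name the chemical beside that percentage, and the controls were read here as carrier only. The sum of reads over genes was 7865327 to 11478099 (median 9029284) in the 18 TBBPA libraries. In the 18 BPA libraries it was 6056692 to 16520859 (median 7235877). For a gene with a given share of a library's reads, counting error is therefore larger in most BPA libraries. In a principal component analysis, replicate 3 at 4.83 µM BPA stood apart from the other BPA libraries and replicate 2 at 0.000292 µM from the other TBBPA libraries. The tests below the EC20 are given with and without them. Among the BPA controls, which the rule used, replicate 2 was at 16.1 on the first component, against −23.7 and −22.8 for replicates 1 and 3.

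TBBPA is a brominated flame retardant and BPA a monomer of plastics. The molecules share a bisphenol core, and TBBPA carries bromine on both phenol rings. By this stage the zebrafish liver is secreting plasma proteins, among them transferrin, which carries iron in the blood, coagulation factors of the factor VII family, and small apolipoproteins that coat lipoprotein particles. Other genes among the 16 have unrelated roles. Goose-type lysozymes cut bacterial cell walls, G protein alpha subunits pass signals on from membrane receptors, and the GFPT enzymes take fructose-6-phosphate into the hexosamine pathway, which feeds protein glycosylation. Of the 16 genes, 11 have a name of a known gene or family, 4 have a clone-based name, and 1, ENSDARG00000103837, was matched to no name and is printed by its identifier.

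The plasma protein genes were tfa (ENSDARG00000016771, transferrin-a), f7i (ENSDARG00000075827, of the factor VII family) and apoc1 (ENSDARG00000092170, apolipoprotein C1, a small protein of lipoprotein particles). The normalized count of tfa was 3048, 1986 and 1402 in CC replicates 1, 2 and 3 and 5452, 3173 and 6857 at 2.92 µM TBBPA. In the 12 libraries of the 4 lower concentrations it ranged from 939 to 3899 around a median of 2108. All 3 EC20 libraries lay above all 3 controls, but replicate 2 at 0.0292 µM exceeded the lowest EC20 library. For f7i, the CC gave 102, 67.4 and 44.7 and the EC20 171, 106 and 168, and the 12 lower-concentration libraries ran from 40.5 to 87.2 (median 63.1). Among its EC20 libraries, replicate 2 was the low one and stood just above the highest control, in replicate 1. The apoc1 counts were 1989, 1652 and 1645 in the CC, 3195, 2614 and 4682 at the EC20, and 1105 to 2471 (median 1700) at the lower concentrations. Every EC20 library of f7i and apoc1 stood above every other library of the series.

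These 3 genes shared an order of the pairs, which zgc:153932, mkrn4 and lygl1 also had. Pair 3 had the largest rise in 10 of the genes chosen. The log2 change at the EC20 in pairs 1, 2 and 3 was 0.84, 0.68 and 2.29 for tfa, 0.73, 0.64 and 1.89 for f7i, and 0.68, 0.66 and 1.51 for apoc1, so that pair 3 had the largest rise in each. The summed level of the 21 other detected liver markers, tfa left out, was 24261, 17916 and 13679 in the CC. At the EC20 it was 29290, 23080 and 35037, a log2 change of 0.27, 0.37 and 1.36. Pair 3 was the largest there too, but pair 2 stood above pair 1, unlike in tfa, f7i and apoc1. No liver marker of the list was at 0 in all libraries of the series. Of 19 liver markers tested, tfa again left out, 18 had a positive difference at the EC20 of TBBPA, with a median of 0.58 against −0.01 over all 18400 genes tested. limma called 0 of the 19 at an adjusted p-value under 0.05 and at least 1.5-fold (0.658% of all genes were called higher and 0.201% lower). DESeq2 called 0 and edgeR 1. By limma, 13 of the 19 had an unadjusted p under 0.05, against 3634 of all 18400 genes. The values of fabp10a, a fatty acid binding protein of hepatocytes, were 4210 ± 1189 among the controls and 5224 ± 424 among the EC20 libraries (SD, n = 3). In whole larvae, more liver cells and more RNA per liver cell cannot be told apart, and the part of the liver level in the rise of tfa, f7i and apoc1 was not tested.

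A pair of neighbouring genes of the plekhs1 family, whose products carry a pleckstrin homology domain, were both among the 16. The copy with the largest mean change of all was plekhs1.1 (ENSDARG00000079227), with 21.4, 24.7 and 77.0 in the CC and 83.4, 110 and 197 at the EC20. Its 12 lower-concentration libraries spread from 18.4 to 81.8 (median 38.4), so the lowest EC20 library stood just above the highest of them. It was the only member that rose at least 2-fold in each pair, with a mean log2 change of 1.79 ± 0.40 (SD over 3 pairs). The CC of plekhs1.3 (ENSDARG00000090526) held 91.5, 93.0 and 103, its EC20 151, 168 and 196, and its lower concentrations 78.9 to 124 (median 107). The EC20 libraries of both copies lay above all 15 other libraries. The copy between them in RefSeq gene order, plekhs1.2, was too low for the test, with controls of 3.57, 2.85 and 8.32 and EC20 libraries of 10.3, 5.34 and 29.1. On the other side, plekhs1.4 went from 17.4 ± 4.73 to 23.7 ± 4.17 (SD, n = 3), a log2 difference of 0.44 that did not pass (limma, adjusted p = 0.53). Reads that fit more than 1 copy of such a family could be assigned or dropped in counting, and the copies' values are uncertain to that extent.

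Among the signalling, defence and metabolic genes, gna14 (ENSDARG00000035178), a G protein alpha subunit of the Gq class, was 51.1, 49.3 and 67.6 in the CC and 101, 79.0 and 131 at the EC20. Its lower-concentration libraries held 42.6 to 63.2 (median 50.9), all under the EC20. The adjacent gnaq, another subunit of that class, had a mean of 138 in both groups. The goose-type lysozyme gene lygl1 (ENSDARG00000056874) read 55.9, 39.8 and 44.7 in the CC against 107.8, 74.7 and 87.3 at the EC20, with 39.1 to 70.9 (median 54.9) in between. Its pair changes were even, at 0.94, 0.89 and 0.95. Its neighbour lygl2 had 0 in every control and at most 0.94 at the EC20. For GFPT2 (ENSDARG00000044094), which encodes an enzyme of the first step of the hexosamine pathway, the controls gave 27.3, 35.1 and 39.5, the EC20 45.9, 56.6 and 63.6, and the lower concentrations 21.1 to 43.8 (median 34.2). The EC20 libraries were again the 3 highest of the series. The sister enzyme GFPT1 went from 62.1 ± 7.01 to 66.3 ± 17.2 (SD, n = 3), a log2 difference of 0.06 (limma, adjusted p = 0.88).

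The gene mkrn4 (ENSDARG00000028295) belongs to the makorin family, zinc finger proteins of which some attach ubiquitin. It had the control mean nearest the limit of the rule, with 33.3, 27.5 and 30.2, and its EC20 values were 57.2, 45.9 and 73.3. Its lower concentrations, however, held 35.9 to 53.8 (median 39.5), and 5 of the 12 libraries were above the lowest EC20 library. All 12 were above the highest control, and the control mean of mkrn4 lay 0.46 below their mean on the log2 scale, the lowest of the 16 genes. A similar order was seen for LRRC39 (ENSDARG00000071465), whose product, also called myomasp in mammals, sits in the M-band of the muscle sarcomere. Its controls were 53.5, 51.2 and 48.9, its EC20 libraries 85.3, 93.9 and 91.6, and its lower concentrations 41.2 to 88.2 (median 64.3). Of the lower-concentration libraries, 1 was above the lowest EC20 library. It was replicate 2 at 0.000292 µM, which stood apart in the principal component analysis. Over all 16 genes, the control lay below the mean of the lower concentrations for 6 and above it for 10, with a median log2 difference of 0.05 against 0.00 over the 14906 genes. NIPSNAP3A (ENSDARG00000020387), of the NIPSNAP family, gave 79.6, 62.6 and 73.8 in the CC, 121, 116 and 140 at the EC20, and 42.8 to 91.4 (median 72.6) at the lower concentrations, without overlap.

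The remaining 5 genes carry no function in the names used here. For si:dkey-7c18.24 (ENSDARG00000041433), the CC values were 149, 141 and 167 and the EC20 values 540, 232 and 333, with pair changes of 1.85, 0.71 and 0.99. The highest of its 12 lower-concentration libraries, at 193, stayed under the lowest EC20 library. Counts of zgc:153932 (ENSDARG00000052779) were 206, 196 and 240 in the CC and 360, 313 and 600 at the EC20, with 103 to 299 (median 181) between. Those of si:dkey-187j14.4 (ENSDARG00000053761) were 85.6, 59.8 and 80.1 against 141, 108 and 152, with 52.4 to 88.4 (median 74.6) between. The EC20 libraries of both genes were above all others. For zgc:111983 (ENSDARG00000006588), controls of 2386, 2013 and 2744 and EC20 libraries of 3651, 3510 and 4559 stood beside 1844 to 2497 at the lower concentrations, and its EC20 libraries overlapped neither. ENSDARG00000103837 differed from the rest. Its controls were 79.6, 91.1 and 22.9 and its EC20 libraries 129, 161 and 39.9, so the groups overlapped, and the value followed the replicate number. At each of the 4 lower concentrations, replicate 2 was the highest (89.1 to 121), and 9 of the 12 libraries were above the EC20 library of replicate 3. Its rise was seen within pairs only, at 0.69, 0.82 and 0.77.

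In all, 12 of the 16 genes had all 3 EC20 libraries above all 12 lower-concentration libraries, against 3.89% of the 14906 genes, the exceptions being tfa, mkrn4, LRRC39 and ENSDARG00000103837. The EC20 libraries that chose the genes enter this count. LRRC39 is an exception through replicate 2 at 0.000292 µM alone. Between CC and EC20, 15 of the 16 did not overlap, but the rule chose the genes on these same libraries. The share over all genes was not counted. Mean log2 changes ran from 0.69 to 1.79 (median 0.89), and 4 genes (plekhs1.1, tfa, si:dkey-7c18.24 and f7i) reached a mean change of 2-fold. Pair 3 held the largest change in 10 genes, and pairs 1 and 2 in 3 each.

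**Figure D1:**
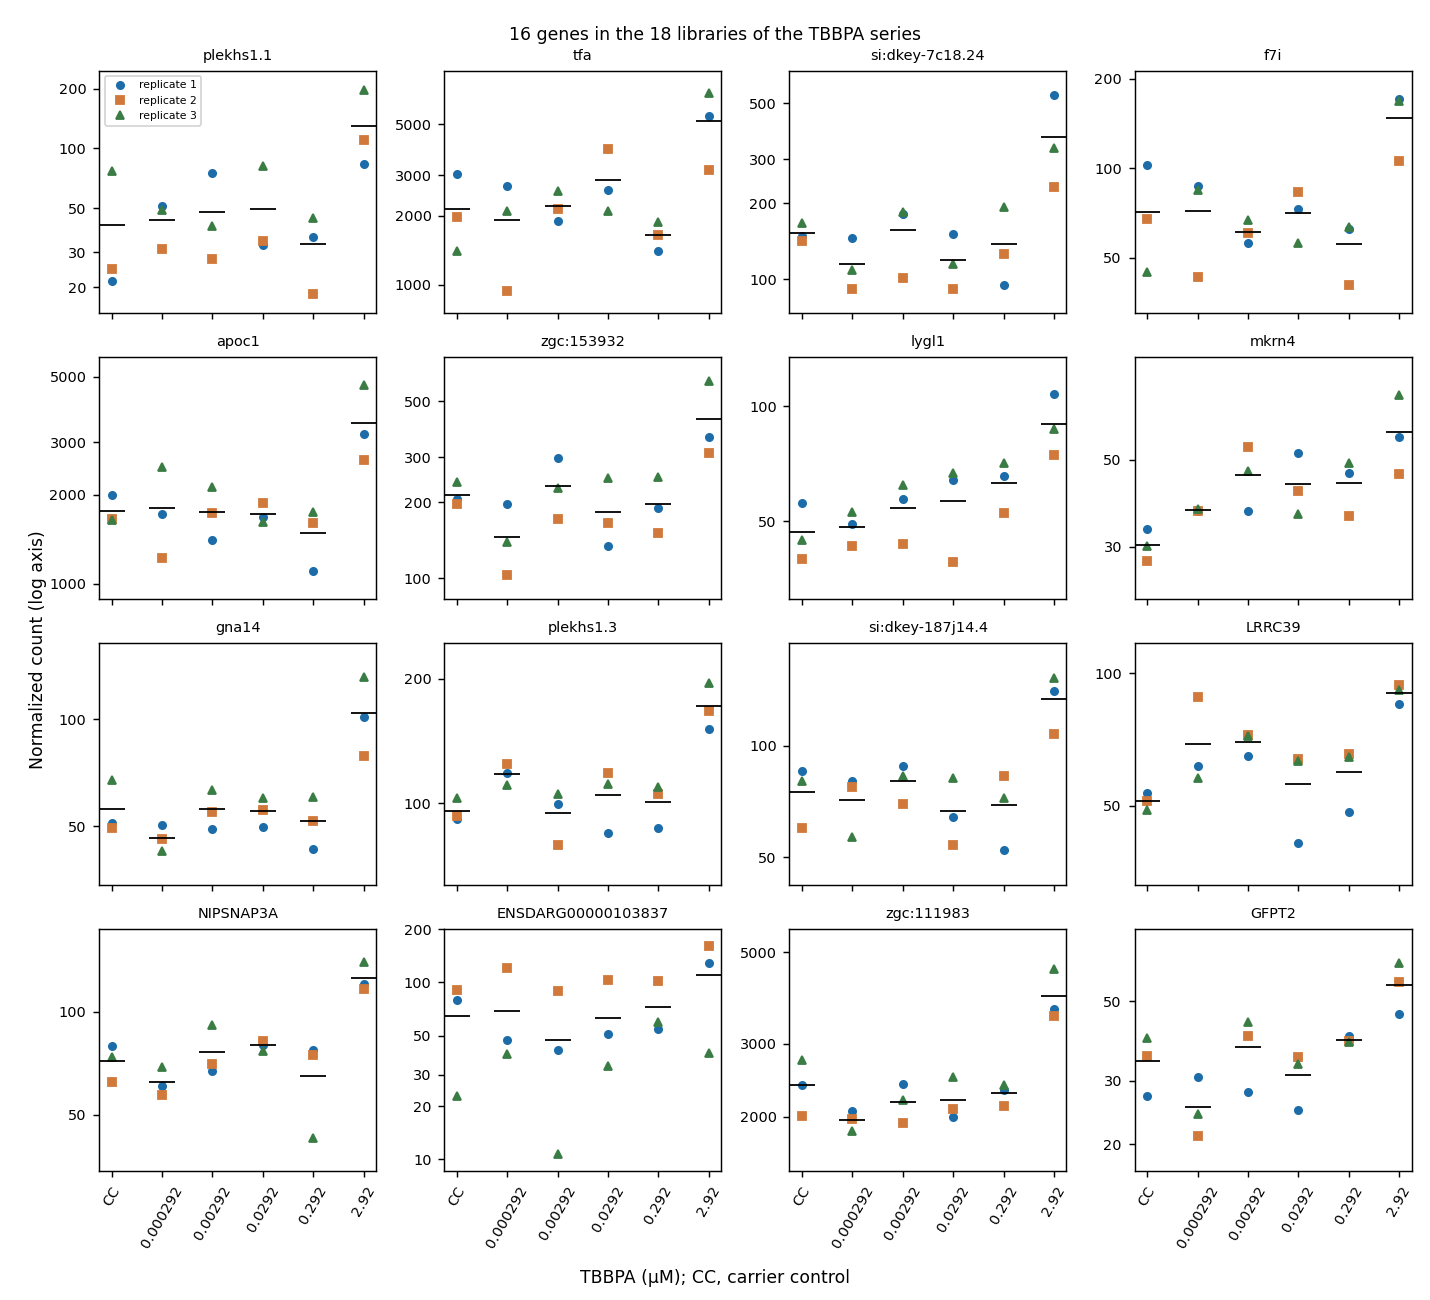
Normalized counts (log axis) of the 16 genes in the 18 TBBPA libraries, by concentration in µM, with 1 symbol per replicate and a bar at the mean of each group of 3. The 2.92 µM libraries stand above all lower-concentration libraries in 12 panels, and ENSDARG00000103837 follows the replicate number.

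The limits of the rule fell among close values. The smallest pair change was 0.60 for NIPSNAP3A, 0.61 for zgc:111983 and 0.64 for f7i inside the limit, and 0.58 for ctss2.2, 0.57 for LPAR2 and 0.57 for ORC4 just outside it. The lowest control means inside were 30.3 for mkrn4, 33.99 for GFPT2 and 41.0 for plekhs1.1, with acot16 at 29.97, ME1 at 28.2 and bub1ba at 26.4 outside. For the size of the mean BPA change, apoc1 at 0.56, lygl1 at 0.48 and gna14 at 0.45 were the nearest inside, and CCNB1 at 0.59, si:dkey-87o1.2 at 0.65 and si:dkey-247k7.2 at 0.70 the nearest outside.

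The same rule applied to 2 pairs takes other lists of genes and leaves 1 pair that did not choose them. Without pair 1 the rule took 31 genes, of which 30 were higher at the EC20 in pair 1 and 15 at least 1.5-fold higher (median log2 change 0.56), where 3.94% of all genes with a control mean of at least 30 were. Without pair 2 it took 47 genes, and 44 were higher in pair 2 and 16 at least 1.5-fold higher (median 0.44), against 2.31% of all genes. Without pair 3 it took 35 genes, and 28 were higher in pair 3 and 12 at least 1.5-fold higher (median 0.31), against 4.41%. Over all genes, 48.1% to 51.2% were higher in the unused pair. The 3 lists share members, and none of them is the list of 16. They hold 11, 15 and 10 of the 16 without pairs 1, 2 and 3. Those genes rose in every pair by the rule, so the counts are no test of the 16.

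The libraries below the EC20 were not used by the rule and can be tested. One step down, at 0.292 µM TBBPA against the 3 lower concentrations, none of the 16 genes passed (limma with the replicate number as a block, adjusted p between 0.92 and 1.00), nor did any of the 18362 genes tested. At an unadjusted p under 0.05, the count was 0 of the 16 and 5.3% of all genes. edgeR and DESeq2 also called 0 of the 16, with 0 at an unadjusted p under 0.05. Differences ran from −0.49 to 0.49 on the log2 scale (median −0.04), with 7 genes higher and 9 lower. For 14 of the 16 genes the 95% interval of the difference lay below a 1.5-fold rise, and for the other two, GFPT2 (0.35, interval −0.04 to 0.74) and ENSDARG00000103837 (0.49, interval −0.03 to 1.01), it did not. The most negative differences belonged to plekhs1.1 (−0.49, interval −0.99 to 0.01) and tfa (−0.43, interval −0.92 to 0.06), which had the largest mean rises at the EC20. Without replicate 2 at 0.000292 µM, 5 of the 16 had an unadjusted p under 0.05, against 1340 of all 18388 genes tested. Again none of the 16 passed (limma, lowest adjusted p = 0.15). That lowest value belonged to tfa, whose difference was −0.60.

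A trend over the 4 lower concentrations gave slopes of −0.13 to 0.16 log2 units per 10-fold step (median 0.02), and none of the 16 genes passed, where 0.0218% of all genes did (4 of 18362). At an unadjusted p under 0.05, edgeR gave 2 of the 16 and 1824 of all 18362 genes, and DESeq2 1 and 1033. By limma there were 3 genes of the 16, against 10.2% of all genes. All 3 had positive slopes, zgc:111983 with 0.07 ± 0.03 (SE, limma, adjusted p = 0.38), lygl1 with 0.11 ± 0.05 (adjusted p = 0.41) and GFPT2 with 0.16 ± 0.08 (adjusted p = 0.48). Over the alternatives run, the adjusted p of these slopes stayed between 0.36 and 0.77. The mean of lygl1 went from 48.4 at 0.000292 µM through 54.3 and 56.7 to 63.0 at 0.292 µM. The trend without replicate 2 at 0.000292 µM also called none of the 16 (limma, lowest adjusted p = 0.16). There, 5 of them were past an unadjusted p of 0.05, against 1625 of all 18388 genes tested.

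**Figure D2:**
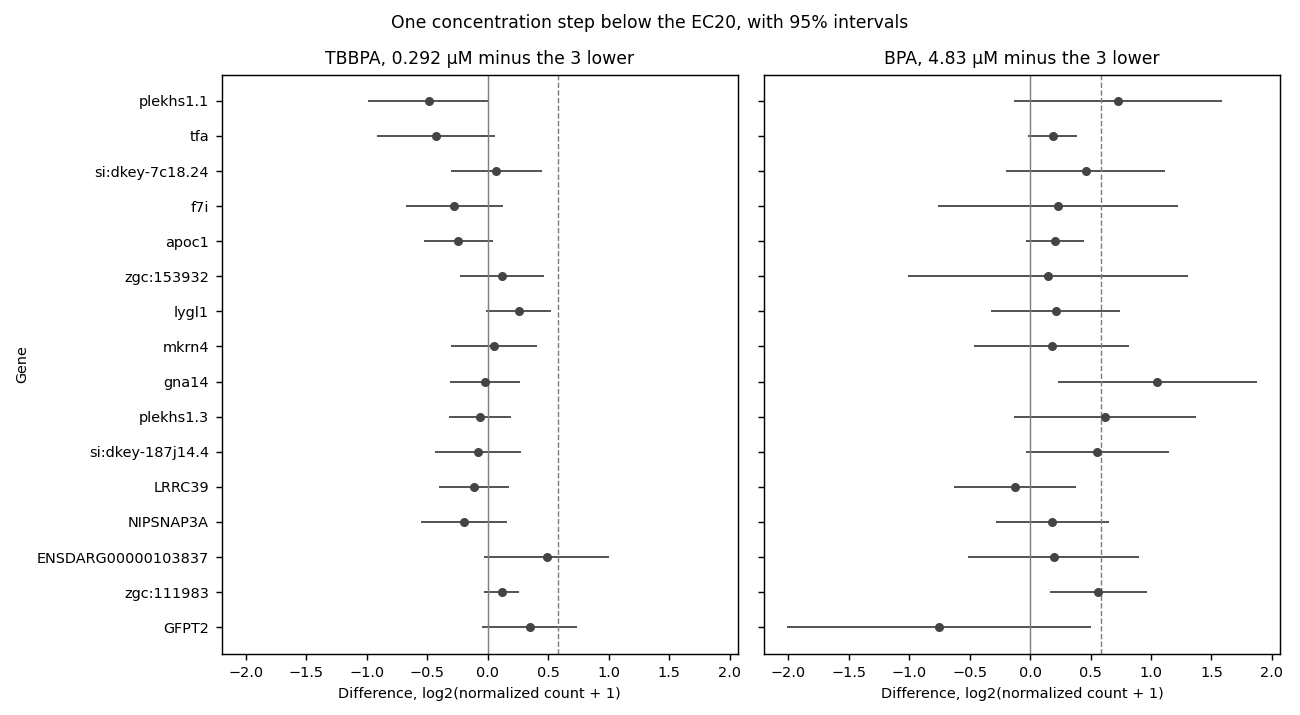
Difference between the concentration one step below the EC20 and the 3 lower concentrations on log2(normalized count + 1), with 95% intervals from limma over 12 libraries, for TBBPA (left) and BPA (right). The dashed line marks a 1.5-fold rise, and 14 of the 16 TBBPA intervals and 4 of the 16 BPA intervals lie below it.

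In the BPA series, 13 of the 16 genes had pairs that moved in different directions at the EC20. The share of all genes with pairs of both signs was not counted. Of the 16 genes, 15 had at least 1 pair past 1.5-fold in either direction, against 41.3% of the 11111 genes with the same control mean whose BPA mean change was also under 1.5-fold, and 8 had pairs past 1.5-fold both upward and downward, against 4.05%. The SD of the 3 BPA pair changes had a median of 0.75 over the 16 genes and 0.27 over those 11111. The 11111 genes were not matched to the 16 for level in the BPA series. In replicates 2 and 3 at the EC20 of BPA, f7i had 2 and 7 reads, whereas tfa had 282 and 554. Control replicate 2 of BPA lay apart from control replicates 1 and 3 in the principal component analysis. The parts of this library and of counting error in the spread of the BPA pairs were not tested. In the TBBPA series the 16 genes had a median SD of 0.17, where the rule asked for a rise in every pair.

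The plasma protein genes were among those with pairs of both signs. The pairs of tfa and apoc1 passed 1.5-fold both upward and downward, and those of f7i downward only. In the BPA series, tfa read 701, 710 and 732 in CC replicates 1, 2 and 3, then 2189, 349 and 499 at 48.3 µM. Its pair changes of 1.64, −1.02 and −0.55 averaged 0.02 ± 1.42 (SD over 3 pairs). Replicate 1 at the EC20 was above all controls and the other two replicates below all of them. The apoc1 counts, 878, 1134 and 918 in the CC and 1654, 269 and 637 at the EC20, gave 0.91, −2.07 and −0.53, and those of f7i, 10.6, 9.76 and 7.10 against 14.9, 2.48 and 6.30, gave 0.45, −1.63 and −0.15. The order of the pairs, found also in NIPSNAP3A, lygl1, si:dkey-187j14.4 and si:dkey-7c18.24, was the same in all 3 plasma protein genes. The summed level of the other liver markers moved beside them, from 7914, 8943 and 8467 in the CC to 12291, 2745 and 3800 at the EC20, a log2 change of 0.64, −1.70 and −1.16. The part of the liver level in these values was not tested. Outside the plasma protein genes, zgc:153932 had all 3 BPA pairs past 1.5-fold, at 0.96, −0.82 and −1.46.

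Pair 3 was the lower one for another set. For plekhs1.1, the BPA controls were 9.65, 9.76 and 27.6 and the EC20 libraries 19.5, 23.5 and 14.4, with pair changes of 0.94, 1.19 and −0.89. The GFPT2 changes, 0.57, 1.05 and −1.05, rested on 17.4, 4.88 and 27.2 in the CC and 26.3, 11.1 and 12.6 at the EC20. For gna14, the controls of 27.0, 8.54 and 39.3 were more spread than the EC20 libraries of 30.9, 23.5 and 34.2, and the change in pair 2 was 1.36. The highest control was replicate 3 each time, the deepest library of the series at 16520859 reads, and the part of depth in these values was not tested. In mkrn4, LRRC39 and ENSDARG00000103837 pair 3 was instead the only pair to rise, by 0.26, 0.61 and 0.78.

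Some of the 16 kept to 1 direction under BPA. The rule kept genes with a small mean BPA change, which favours pairs of both signs. The share of all genes that kept to 1 direction was not counted. All 3 pairs were higher for lygl1, with 26.1, 28.1 and 30.5 in the CC and 44.7, 34.7 and 40.5 at the EC20, and for si:dkey-187j14.4, with 29.9, 31.7 and 46.0 in the CC and 53.8, 34.7 and 59.5 at the EC20. For lygl1 the groups did not overlap, and its mean log2 change of 0.48 ± 0.24 (SD over 3 pairs) compares with 0.93 ± 0.03 in the TBBPA series, so this lysozyme gene sat within the limit for BPA while being higher in every pool. All 3 pairs were lower for si:dkey-7c18.24, with changes of −0.02, −0.49 and −0.12, the only gene of the 16 with no BPA pair past 1.5-fold. Its counts were 28.0, 31.7 and 28.4 in the CC and 27.5, 22.3 and 26.1 at the EC20. The other 13 genes had pairs of both signs. The EC20s lie at different concentrations and the series were normalized separately, so these changes are set side by side and the difference between the chemicals was not tested.

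**Figure D3:**
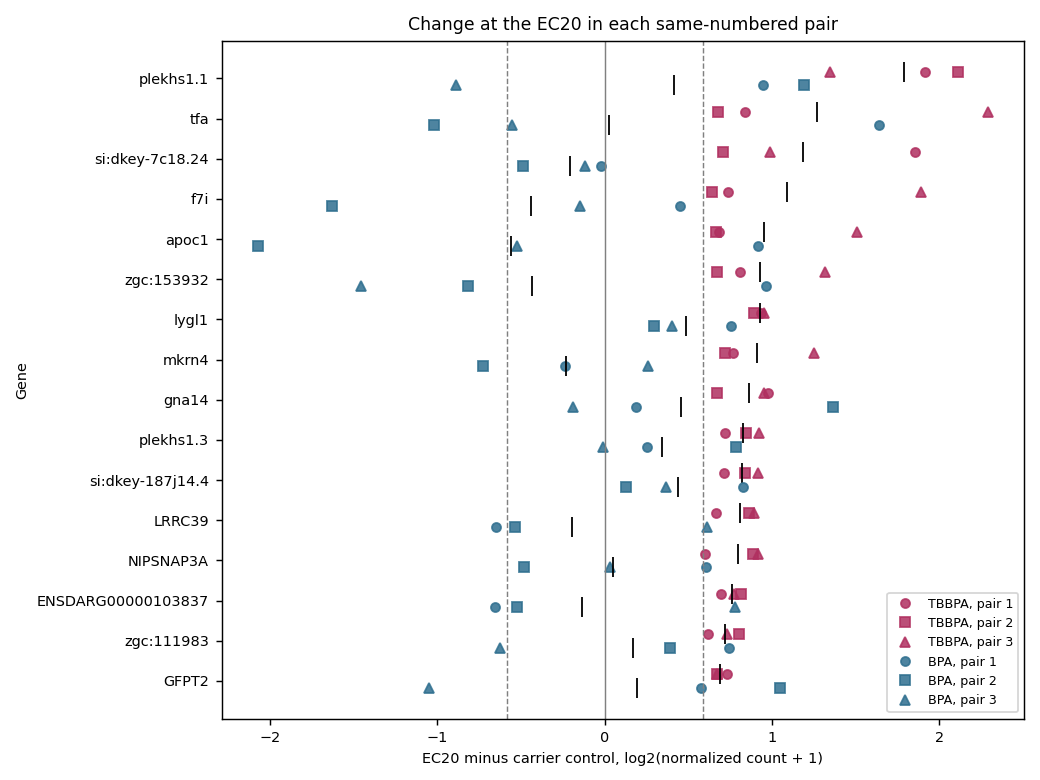
Change from CC to the EC20 in each same-numbered pair on log2(normalized count + 1), TBBPA in red and BPA in blue, with a black bar at the mean of the 3 pairs and dashed lines at 1.5-fold. The TBBPA pairs lie beyond the upper line because the rule asked for it, and 15 of the 16 genes have a BPA pair outside the lines.

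At 4.83 µM BPA, one step below the EC20 and not used by the rule, none of the 16 genes passed against the 3 lower concentrations (limma, adjusted p between 0.34 and 0.89), and none of the 17140 genes tested did. At an unadjusted p under 0.05 there were 2 of the 16 by limma, by edgeR and by DESeq2. Of all 17140 genes, limma had 2391 (13.9%) under that limit, edgeR 2057 and DESeq2 1456. Differences were positive for 14 genes, with a median of 0.21 against −0.02 over all genes. The 2 genes were gna14, 1.05 higher (interval 0.23 to 1.88, adjusted p = 0.34), and zgc:111983, 0.56 higher (interval 0.17 to 0.96, adjusted p = 0.34). The intervals are wide, and 12 of the 16 reach a 1.5-fold rise, so that the test leaves a rise of that size possible for most of the genes. The 3 libraries at 4.83 µM differed from each other by 7.45 to 31.9 in chi-square per degree of freedom, far beyond counting noise. Without replicate 3 at 4.83 µM, the library that stood apart, 12 of the 16 were higher and none passed (limma, lowest adjusted p = 0.12). An unadjusted p under 0.05 was found for 3 of the 16, and for 1648 of all 17168 genes tested.

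Most of the 16 genes also had lower levels in the BPA series. As RPM (reads scaled to a common total over genes), the mean CC level in the TBBPA series was 0.96 to 6.50 times that in the BPA series (median 1.69, against 1.16 over the 14906 genes), and 15 of the 16 ratios were above 1. The ratio was at least 1.5 for 11 of the 16, where 20% of all genes reached it. The rule set a minimum level in the TBBPA controls and none in the BPA controls, which can favour a higher level in the TBBPA series. The 14906 genes met the same minimum, and its part in these ratios was not tested. The widest was that of f7i, at 7.84 ± 2.94 RPM in the TBBPA controls and 1.21 ± 0.22 in the BPA controls (SD, n = 3). The ratio was 4.36 for si:dkey-7c18.24, 2.48 for tfa and 2.46 for zgc:153932, while LRRC39 (1.01) and mkrn4 (0.96) were nearly level. These are levels across separate experiments, given as a description. What set them apart was not tested.

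**Figure D4:**
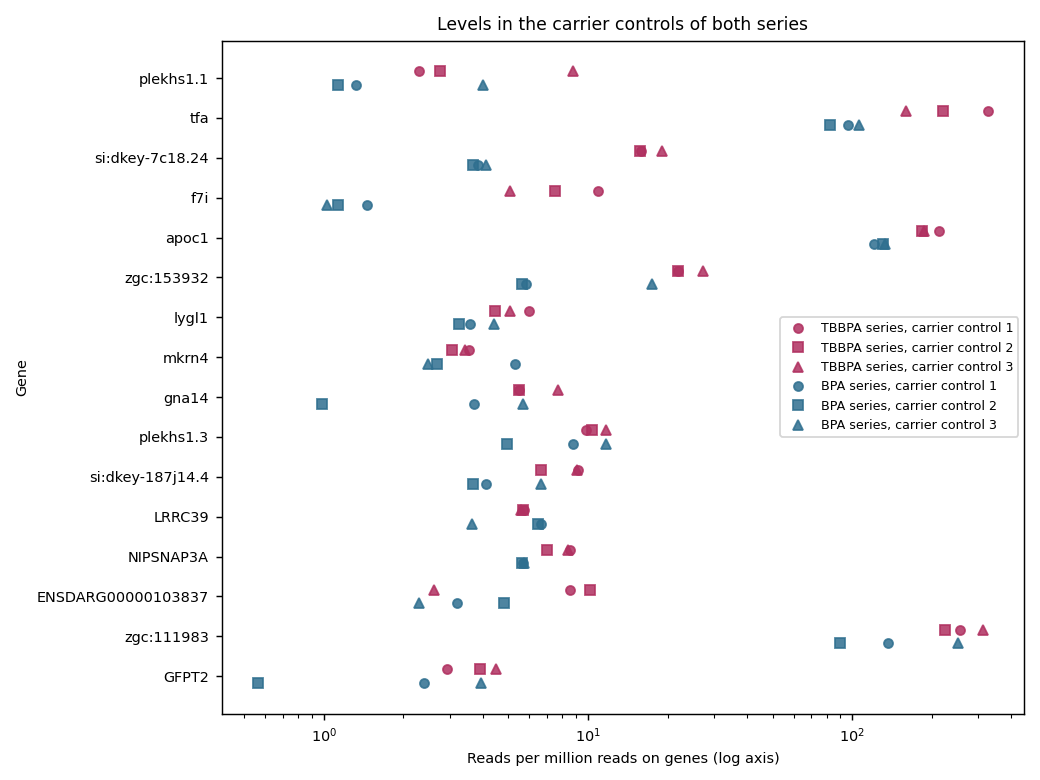
RPM (log axis) of the 16 genes in the 3 carrier controls of the TBBPA series (red) and the 3 of the BPA series (blue). The TBBPA mean is the higher one in 15 genes, and mkrn4 is the exception.

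Of the pathways with a member among the 16, the complement, coagulation and acute phase list had 48 genes tested at the EC20 of TBBPA beside tfa and f7i, which the rule chose. Of these 48, limma called 3 higher, where 0.658% of all genes were, and the median log2 difference was 0.57 against −0.01 over all genes. edgeR called 3 of the 48 and DESeq2 1. The limma calls were c4b (34.6 ± 12.2 to 116 ± 67.8, SD, n = 3), cfb (105 ± 33.2 to 245 ± 88.7) and c9 (463 ± 164 to 856 ± 223), all of them complement components. The summed level of the list without tfa and f7i changed by 0.21, 0.22 and 1.37 in pairs 1, 2 and 3 on the log2 scale, with pair 3 the largest as in the liver markers, and the part of the liver level in these calls was not tested. In the BPA series, where 7.07% of all genes were called higher and 6.93% lower, 5 of the 47 genes tested were higher and 4 lower, with a median of 0.11. Under TBBPA, the coagulation factor gene f10, next to f7i in gene order, went from 299 to 377 on average. Its log2 difference of 0.34 did not pass (limma, adjusted p = 0.26). The genes f7 and f7l, on the other side of f7i, were matched to no identifier. Of other genes named F7, ENSDARG00000034862 went from 52.1 to 85.4 on average. It was 0.77 higher on the log2 scale without passing (limma, adjusted p = 0.08). ENSDARG00000100782 was 0.37 higher and did not pass either (limma, adjusted p = 0.47).

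The list of intestinal absorption and lipoproteins, which holds apoc1, had 44 other genes tested under TBBPA, with a median of −0.04. Of these, 2 were called higher and 1 lower, where 0.658% and 0.201% of all genes were. The 2 higher were chia.6, a chitinase gene, and slc51a, a bile acid exporter subunit. SLC10A2, the ileal bile acid importer, was lower (106 ± 12.1 to 62.8 ± 11.4, SD, n = 3). On one side of apoc1 in gene order lies apoeb, which went from 4075 ± 364 to 5352 ± 1090 (SD, n = 3, log2 difference 0.38, adjusted p = 0.04, under 1.5-fold). On the other side lie apoc4, with a mean of 1.01 in the CC and 0.94 at the EC20, and then apoa2, which went from 7119 ± 1805 to 13201 ± 3267 (log2 difference 0.89, adjusted p = 0.06). The apoa2 product is a major apolipoprotein of high-density particles. In the BPA series, 3 of the 43 genes tested in the list beside apoc1 were called higher and 12 lower. Their median was −0.72 against −0.02 over all genes, of which 7.07% were called higher and 6.93% lower. In the list of cytokine signalling and innate immunity, which holds lygl1, limma called 3 of the 36 other genes higher under TBBPA, where edgeR called 5 and DESeq2 2. The limma calls were irg1l (35.0 ± 4.84 to 201 ± 126, SD, n = 3), MMP9, a matrix protease (27.9 ± 3.12 to 87.5 ± 30.1), and ATF3, a stress-induced transcription factor (88.4 ± 7.65 to 159 ± 41.2). In the BPA series, 17 of the 34 other genes tested in that list were higher and 1 lower. The summed level of 16 phagocyte markers was 596 to 629 in the TBBPA controls and 763 to 957 at the EC20. All 12 that could be tested had positive differences. In the BPA series the sum was 305 to 391 in the controls and 842 to 943 at the EC20, and 10 of 11 differences were positive. The part of the phagocyte level in the lygl1 values was not tested. The exocrine pancreas markers summed to 3449 to 6429 in the controls and to 3052 to 11066 at the EC20 of TBBPA, with overlap.

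RefSeq gene order placed 15 of them on 11 chromosomes, and plekhs1.1 and plekhs1.3 were the only ones within 2 protein-coding genes of each other. Of 27 tested genes within 2 places of a member, apoeb alone had an adjusted p under 0.05 (limma), at less than 1.5-fold. An unadjusted p under 0.05 was found for 6 of the 27, and for 3634 of all 18400 genes tested. The median log2 difference of the 27 was 0.02. Beside si:dkey-187j14.4, the genes zgc:172065 and zgc:172075 differed by 0.88 and 0.49 without passing (adjusted p = 0.18 and 0.13). LRRC39 lies next to trmt13, which had a mean of 12.7 in the CC and 12.1 at the EC20, and the strand setting of the counting is not given in the sources used here.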

How the data were processed

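The authors made stranded mRNA libraries, used cutadapt for trimming, and took gene counts from STAR alignments (quant mode) to GRCz11. The authors deposited for each chemical a table of normalized counts, a signal on a linear scale equal to the gene count divided by the library's DESeq2 size factor. Whole reads were recovered from these values for 100% of entries (tolerance 0.01), and their sum over genes was taken as depth. Libraries of a group differed from each other beyond counting noise (chi-square over degrees of freedom, 3.11 to 31.9).

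Tests used limma 3.58.1 in R 4.3.3 (lmFit, eBayes with a trend) on log2(value + 1), for genes with a mean of at least 10, with Benjamini-Hochberg adjustment over all genes tested. The tests below the EC20 used the 12 lower-concentration libraries of a chemical, and the EC20 tests, made for genes the rule did not choose, its 18 libraries with calls at an adjusted p under 0.05 and at least 1.5-fold. A fold on this scale understates the change of low genes. The replicate number was a block, as in the authors' design, because the replicates were separate repeats with different clutches. In the check of this pairing, libraries with the same number deviated together, with a median correlation of deviations of 0.115 in the BPA and 0.166 in the TBBPA series, against −0.06 and −0.08 for other numbers, but between the CC and EC20 of BPA, replicate 1 had −0.04. edgeR 4.0.16 and DESeq2 1.42.0 on recovered reads, other pseudocounts, filters and scalings, and leaving out libraries were alternatives. Each test was tested on simulated data.

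The members and gene lists were chosen with earlier results of these data known. All 16 members are named with values, as are list genes called at the EC20 beside members, the genes nearest to each limit, and neighbours and family members. Of the neighbours and family members, those described singly were chosen after their values were seen. Names came from a reference table and the study's supplement (24665 of 26639 identifiers in the TBBPA table matched), and gene order from RefSeq GRCz12tu, another assembly than the authors', from which no coordinates were taken. No sequences are printed. Python 3.11.15, numpy 2.4.6, pandas 2.3.3 and matplotlib 3.10.9 were used.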

Additional observations from a re-analysis of the deposited data

Results flagged for a closer look

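The gene si:dkey-7c18.24 was higher at the EC20 of TBBPA in all 3 pairs and lower at the EC20 of BPA in all 3 pairs. Its mean log2 change was 1.18 ± 0.60 for TBBPA and −0.21 ± 0.25 for BPA (SD over 3 pairs). The BPA pair changes were small, at −0.02, −0.49 and −0.12, with none past 1.5-fold. The TBBPA direction was set by the choice of genes, and the difference between the chemicals was not tested.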

How the results depend on the processing

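The number of genes that met the rule was 16, and it became 34 with a control mean of at least 10, 1 (plekhs1.1) at 2-fold, 100 with the mean change over the pairs in place of each pair, and 31 to 47 without 1 replicate number. A pseudocount of 10 gave 12 genes, 11 of them among the 16, and TMM scaling 17, with all 16. None of the 16 genes was called in the tests below the EC20 of either chemical under any alternative. These tests compared lower concentrations with each other and not with the CC. At 0.292 µM TBBPA, 0 genes in all were called, 0 to 4 when libraries were left out. In the trend over the lower TBBPA concentrations, 4 genes were called, against 0 with no filter on low values, 0 with no replicate block, 9 by edgeR, 52 by DESeq2, 29 in a fit of all 18 libraries, and 0 to 10 when libraries were left out. At 4.83 µM BPA, 0 were called, 3 by DESeq2, and 0 to 8 when libraries were left out. At the EC20 of TBBPA, 158 genes were called, 69 with no replicate block, 88 by DESeq2, and 19 to 225 when libraries were left out (19 without replicate 3, 46 without replicate 1). At the EC20 of BPA, 2414 were called, and 1164 to 3562 when libraries were left out (1164 without replicate 2, 1224 without replicate 1). Of the 176 alternative values of the 16 genes in each of these tests below the EC20, 7 at 0.292 µM TBBPA, 11 in the trend and 10 at 4.83 µM BPA changed sign, none of them called. The causes were not tested. Leaving out replicate 2 at 0.000292 µM TBBPA was added after seeing the data. Counting error is largest, relative to the level, in genes with few reads.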
